A study of Homo sapiens with 18 samples.

Results

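Collagen mRNAs were examined in a FLAG immunoprecipitation of ADAR3 from U373-MG, an established cell line from a human glioblastoma. The 10 genes were taken by Ensembl identifier, out of 60666 gene identifiers in the study, and stand for the chains of collagen types I, III, IV, V and VI: COL1A1 (ENSG00000108821), COL1A2 (ENSG00000164692), COL3A1 (ENSG00000168542), COL4A1 (ENSG00000187498), COL4A2 (ENSG00000134871), COL5A1 (ENSG00000130635), COL5A2 (ENSG00000204262), COL6A1 (ENSG00000142156), COL6A2 (ENSG00000142173) and COL6A3 (ENSG00000163359). The rule used no measured value, but the members were chosen with earlier results of these data known. The cells had received, by retroviral transduction, FLAG-tagged ADAR3 with a mutated R-domain (ADAR3 R-Mutant), wild-type ADAR3 with the same tag (ADAR3 WT), or the empty vector with its antibiotic resistance marker alone (Control). RNA of the FLAG precipitate (IP) and of the input was sequenced after UV crosslinking at 150 mJ/cm2, with 3 libraries for each of the 6 combinations of genotype and fraction. ADAR3 was therefore added from a vector in both protein-expressing lines. The promoter of the vector and whether the lines are clonal or pooled are details not given in sources used here. The replicates are numbered, but no label ties them to separate cultures, so a p-value reflects the spread between these libraries alone, which may be technical.

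ADAR3 is an ADAR-family protein that binds double-stranded RNA, has no detectable deaminase activity, and carries an arginine-rich R-domain that can bind single-stranded RNA. The question of the study was how the R-domain shapes the RNAs that associate with ADAR3. Fibrillar collagen chains (types I, III and V) form the tensile fibres of connective tissue, type IV chains form the network of basement membranes, and type VI chains assemble into beaded microfibrils around cells. All are secreted proteins whose long mRNAs are translated at the endoplasmic reticulum, where the chains are hydroxylated and fold into triple helices. In brain, type IV collagen lies mainly in the vascular basement membrane.

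The genes lie on several chromosomes in RefSeq's GRCh38.p14 annotation, and some are close neighbours. COL4A1 (chr13:110148963-110307157) and COL4A2 (chr13:110307284-110513209) lie head to head, with 126 bases between their annotated starts. COL6A1 (chr21:45981770-46005048) and COL6A2 (chr21:46098112-46132848) lie 93.1 kb apart, and COL3A1 (chr2:188974373-189012746) lies 19.2 kb from COL5A2 (chr2:189031898-189441111). The remaining members are COL1A1 (chr17:50184101-50201631), COL1A2 (chr7:94394895-94431227), COL5A1 (chr9:134641803-134844843) and COL6A3 (chr2:237324018-237414164). RefSeq places antisense noncoding genes within COL4A2 and COL5A1. A long noncoding gene also overlaps each of COL3A1 (LOC105373791), COL4A1 (LOC124903212) and COL6A2 (LOC124905043). Others overlap COL5A1 (LOC101448202, LOC124902300 and LOC124902301), and the strand of these genes was not examined. The pseudogene KRT18P19 overlaps COL5A2, and small RNA genes overlap some members. The strand setting of the counting is not given in the sources used here, so reads of those partners may be included.

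Start regions are shown for the chain whose input RNA differed, COL6A2, and for the pair that shares a start region, COL4A1 and COL4A2. Sequences are RefSeq's (GRCh38.p14), from a promoter table in which 5 of the 10 members were matched. Capitals mark every match, on either strand, of a TATA box (TATAAA), a GC box (GGGCGG) or a CCAAT box (CCAAT). Of 35116 promoter entries, 10.7% held the TATA letters, 42.6% the GC box letters and 32.0% the CCAAT letters within 250 bases before the start. The 250 bases before the COL6A2 start (chr21:46097862-46098111, plus strand) are
COL6A2: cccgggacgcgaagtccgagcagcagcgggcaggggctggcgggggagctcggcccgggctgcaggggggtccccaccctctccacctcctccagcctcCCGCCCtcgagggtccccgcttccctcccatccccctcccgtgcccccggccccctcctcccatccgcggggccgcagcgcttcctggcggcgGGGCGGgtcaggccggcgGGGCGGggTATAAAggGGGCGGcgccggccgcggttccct
The stretch between the 2 type IV starts (chr13:110307158-110307283, plus strand, so COL4A2 is read to the right and COL4A1 to the left) is
COL4A1 and COL4A2: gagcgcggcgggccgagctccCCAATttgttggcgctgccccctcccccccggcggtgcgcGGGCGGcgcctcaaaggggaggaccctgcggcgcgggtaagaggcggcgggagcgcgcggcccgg
In the COL6A2 sequence a TATA match began 32 bases before the start, among 4 GC box matches, 3 of them on the strand of the gene. In the type IV stretch, a CCAAT match lay on the COL4A2 strand, beginning 105 bases before the COL4A2 start, and a GC box match began 65 bases before it. These matches are letters in the genome and not evidence that a factor was bound.

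Not every collagen chain was measurable in these cells. COL1A2 and COL3A1 were at or near 0, with a mean normalized count of at most 0.63 and 0.659 in any of the authors' deposited tables. Their log2 fold changes had standard errors of 2.77 or more in the authors' deposited tables, and no adjusted p was given, so they were tested in none of the 4 comparisons. COL6A3, the longest chain of type VI collagen, had a mean between 5.54 and 6.87 normalized counts in the authors' deposited tables and was tested, with standard errors between 0.76 and 1.68 on the log2 scale. COL1A1, which pairs with COL1A2 in type I collagen, had means between 72.9 and 104 normalized counts in the authors' deposited tables. The other 6 members had a mean of at least 970 normalized counts in each of the authors' deposited tables, up to 65793 for COL5A2 in the input. These counts are not corrected for transcript length, so they bear on the precision of each gene and do not rank the genes by expression. Of the 10 members, 8 were thus tested in every comparison.

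The first comparison asked which RNAs were enriched with ADAR3 WT. IP enrichment means the share of an RNA in the IP relative to its input, and each log2 fold change compares that enrichment between a pair of genotypes, as the deposited tables were read. None of the 8 tested collagen mRNAs passed the test, a normal test of the fold change against its standard error with an adjusted p (Benjamini-Hochberg) under 0.05. No member passed at an unadjusted p under 0.05 either, where 25.2% of all tested genes did. In the same test, 14.1% of all 21121 tested genes were called, and 23.6% of those at a mean of 1000 or more. By the likelihood ratio p of the authors' deposited table, which covers more terms than this fold change, 5 of the 8 members and 43% of all genes had an adjusted p under 0.05.

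The basement membrane chains gave values near 0. COL4A1 had a log2 fold change of -0.12 ± 0.23 (standard error) and COL4A2 of -0.09 ± 0.30 in the authors' deposited table for ADAR3 WT over Control. Among the fibrillar chains, COL5A1 was at -0.22 ± 0.29 and COL5A2 at -0.24 ± 0.19 in the authors' deposited table. COL5A2, with a mean of 43213 normalized counts in the authors' deposited table, had the narrowest interval of the members, a 95% interval of 0.66 to 1.10 on the linear scale. The type VI chains COL6A1 and COL6A2 were at -0.24 ± 0.29 and -0.39 ± 0.27 in the authors' deposited table. For 6 of the 8 members, all but COL1A1 and COL6A3, the interval lay within a 2-fold difference in either direction, as it did for 34.3% of all tested genes and 70.2% of those at a mean of 1000 or more. The intervals assume a spread of fold over standard error of 1 across genes, where the robust spread was 1.59. They may thus be too narrow, and wider intervals were not examined. COL1A1 had the largest deviation from 0, at -1.11 ± 0.57 in the authors' deposited table (adjusted p 0.206, normal test), with a 95% interval from 0.21 to 1.01 on the linear scale. COL6A3 was at 0.04 ± 1.68 in the authors' deposited table, an interval of 0.11 to 10.0 on the linear scale, so a difference of many fold was not detectable at its count.

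R-Mutant over Control uses the same Control libraries, so its values stand beside those of ADAR3 WT and are not independent of them. None of the 8 tested members passed (normal test, adjusted p under 0.05), against 13.3% of all 21120 tested genes and 22.4% of those at a mean of 1000 or more. At an unadjusted p under 0.05 there were 2, COL1A1 and COL6A2, where 24.8% of all tested genes reached that level. COL6A2 was at -0.60 ± 0.30 in the authors' deposited table (adjusted p 0.182, normal test), and COL6A1 at -0.46 ± 0.31 (adjusted p 0.371, normal test). COL1A1 was at -1.26 ± 0.63 in the authors' deposited table (adjusted p 0.19, normal test). The type IV chains were at -0.19 ± 0.24 for COL4A1 and -0.22 ± 0.31 for COL4A2 in the authors' deposited table. COL5A1 was at -0.27 ± 0.30 and COL5A2 at -0.36 ± 0.20 in the authors' deposited table. COL6A3 was at -0.95 ± 1.67 in the authors' deposited table. The interval stayed within 2-fold for COL4A1, COL4A2, COL5A1 and COL5A2, or 4 of the 8 members, as it did for 31.5% of all tested genes and 66.0% of those at a mean of 1000 or more. With a robust spread of 1.60 in this comparison, these intervals may be too narrow as well. By the likelihood ratio p of the authors' deposited table, 5 of the 8 had an adjusted p under 0.05, against 40.8% of all genes.

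The collagen mRNAs lay slightly below the centre of all genes in both comparisons with Control. In ADAR3 WT over Control, 7 of the 8 tested members were below 0, as were 49.3% of all tested genes, and the members' median was -0.23 against 0.01 for all tested genes. Against Control, the R-Mutant gave values below 0 for 8 of 8 members and 48.3% of all tested genes, with medians of -0.41 and 0.03. Genes of high mean tend lower in these tables. At a mean of 1000 or more the median of all genes was -0.07 in ADAR3 WT over Control and -0.06 in R-Mutant over Control. The 6 members at such a mean had medians of -0.23 and -0.32, and all 6 were below 0 in each, as were 55.9% and 54.8% of genes at that mean. Counts are normalized between libraries, so these values are relative to other RNAs in the precipitate. Shifts of this size were within the standard error for COL4A1, COL4A2, COL5A1 and COL6A1 in ADAR3 WT over Control.

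**Figure D1:**
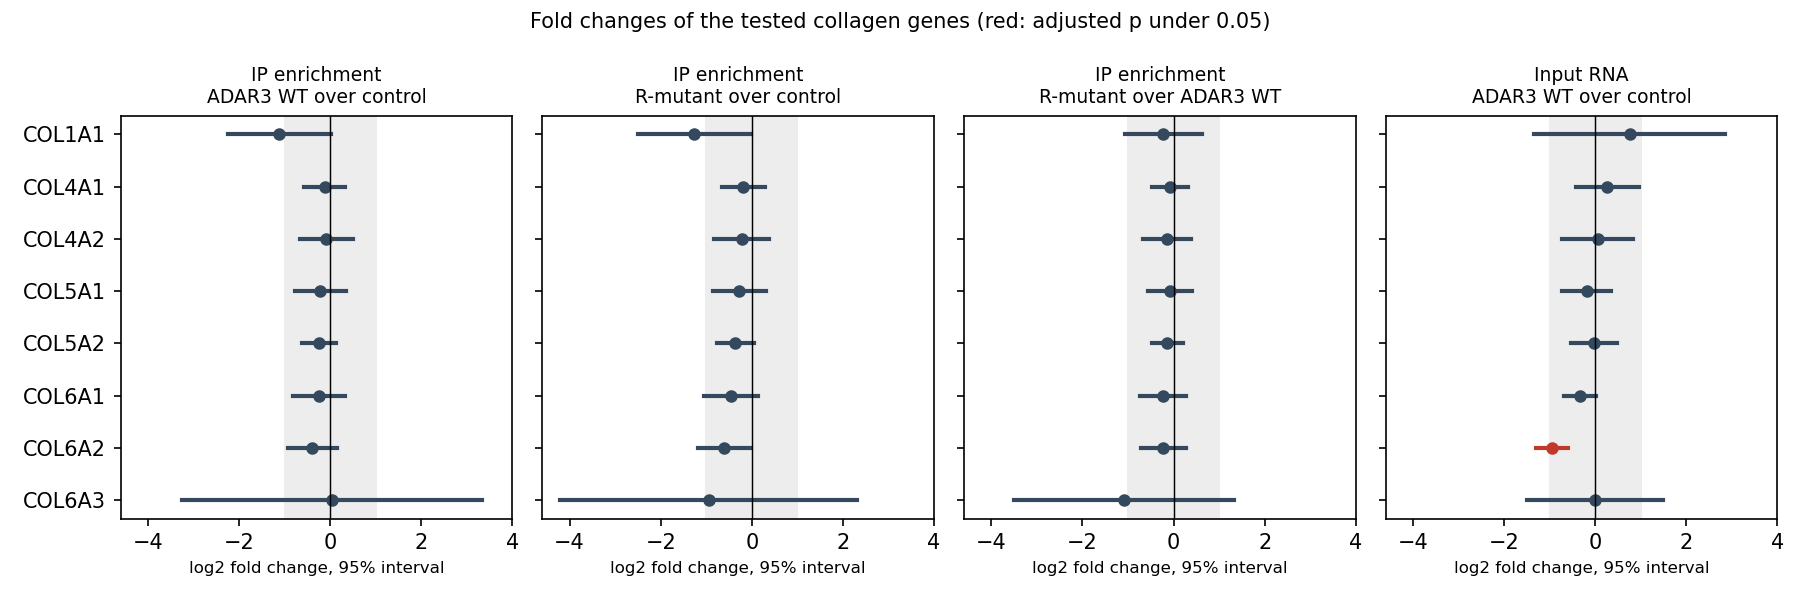
Log2 fold change (points) with its 95% interval (lines, horizontal axis) for the 8 tested collagen genes, 1 panel for each comparison, with the grey band marking less than a 2-fold difference. COL6A2 in the input, at -0.95, is the only point in red (normal test adjusted p under 0.05), and the lines of COL1A1 and COL6A3 are the widest.

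Setting R-Mutant directly against ADAR3 WT asked whether enrichment depended on an intact R-domain. None of the 8 tested members passed (normal test, adjusted p under 0.05), and none had an unadjusted p under 0.05, in a table where 1 of 23385 genes (0.00428%) was called and 0.624% had an unadjusted p under 0.05. Of the 6645 genes at a mean of 1000 or more, 0% were called. The robust spread of fold over standard error across genes was 0.605 here, where the test assumes 1. A gene's failure to pass therefore says little in this comparison. The lowest value of a member above a mean of 50 was that of COL6A1, at -0.23 ± 0.25 in the authors' deposited table, with COL6A2 at -0.23 ± 0.25 beside it. COL1A1 was at -0.22 ± 0.43, COL4A2 at -0.15 ± 0.27 and COL5A2 at -0.14 ± 0.17 in the authors' deposited table. COL4A1 and COL5A1 lay nearest to 0, at -0.08 ± 0.20 and -0.07 ± 0.25 in the authors' deposited table. COL6A3 was at -1.09 ± 1.23 in the authors' deposited table. The interval lay within 2-fold for 6 of the 8 members, all but COL1A1 and COL6A3. That was so for 55.2% of all tested genes and 99.2% of those at a mean of 1000 or more. For COL5A2 the interval was 0.72 to 1.15 on the linear scale.

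All 8 values were below 0 in this comparison, with a median of -0.18, where the median of all tested genes was -0.02 and 53.9% lay below 0. At a mean of 1000 or more, 5 of 5 members and 61.2% of 6645 genes lay below 0, with medians of -0.14 and -0.03. The likelihood ratio p of the authors' deposited table gave an adjusted p under 0.05 for 7 of the 8 members, all but COL6A3, and for 51.1% of all genes. Its statistic was 223 for COL5A2 and 180 for COL4A1 in the authors' deposited table, beside fold changes smaller than their own standard errors. In all 3 IP tables these p-values follow chi-square with 7 degrees of freedom, so they do not test the printed fold change alone.

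The 3 IP tables fit together closely for the chains of high count. Subtracting the ADAR3 WT value against Control from that of R-Mutant over Control gave -0.21 for COL6A2, against -0.23 in the authors' deposited table of R-Mutant over ADAR3 WT. The gap between both routes was 0.0136 for COL6A2 and 0.0134 for COL4A2, COL5A1 and COL6A1, while at lower counts it was 0.0694 for COL1A1 and 0.102 for COL6A3. For the chains of high count the direct table is thus close to the difference of the others and gives no measurement separate from them.

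In the input RNA, COL6A2 was lower in ADAR3 WT cells than in Control cells. Its log2 fold change between these genotypes was -0.95 ± 0.18 in the authors' deposited table (adjusted p 0.000118, normal test), which is 0.52-fold on the linear scale with a 95% interval of 0.41 to 0.66. COL6A2 encodes the alpha 2 chain that joins COL6A1 and COL6A3 in type VI collagen. It was the only one of the 8 tested members to pass, in either direction, where 0.289% of 20411 tested genes were called and 0.186% were called lower. At an unadjusted p under 0.05 it was again 1 of 8 members, against 2.92% of all tested genes. Genes called lower in the input numbered 38, and COL6A2 had the sixth smallest p among them. Their log2 fold changes ran from -2.41 to -0.72, and 31 of them lay lower than COL6A2. At a mean of at least 1000, however, 4 of 7124 genes had a lower fold change than COL6A2, 0.182% were called in either direction, and 3 of the 13 called were lower. Input libraries of the R-Mutant were not compared in the deposited input table used here, so this difference is described for ADAR3 WT alone. Values per library were present but fit no label and were not used. The spread of COL6A2 between libraries was therefore not examined. ADAR3 WT and Control are separately transduced lines, so ADAR3 itself and any other difference between the lines cannot be told apart. In bulk RNA, fewer cells with the transcript and less of it in each cell cannot be told apart either.

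Its partner chains did not pass. The robust spread of fold over standard error was 0.657 in the input, where the test assumes 1, so not passing says little here. After rescaling to that spread, COL6A1 had an adjusted p of 0.0808 (rescaled normal test). COL6A1 was at -0.34 ± 0.18 in the authors' deposited table (unadjusted p 0.0585, normal test adjusted p 1), an interval of 0.62 to 1.01 on the linear scale. COL6A3 was at 0.00 ± 0.76 in the authors' deposited table, with an interval of 0.35 to 2.82 on the linear scale. The 95% intervals of COL6A1 (-0.68 to 0.01) and COL6A2 (-1.30 to -0.61) overlap on the log2 scale, and the difference between the genes was not tested.

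No chain of type IV or V passed in the input, where the same limit applies. COL4A1 was at 0.27 ± 0.35 and COL4A2 at 0.05 ± 0.39 in the authors' deposited table of input RNA. COL5A1 was at -0.19 ± 0.27 and COL5A2 at -0.03 ± 0.25 in the same authors' deposited table. For these 4 and COL6A1 the interval lay within 2-fold, which held for 66.8% of all tested genes and 98.3% of those at a mean of 1000 or more. COL1A1 was at 0.75 ± 1.07 in the authors' deposited table, with an interval from 0.39 to 7.19 on the linear scale. The members' median was -0.02, against 0.03 for all tested genes. At a mean of 1000 or more, 4 of 6 members and 28.5% of genes lay below 0, with medians of -0.11 for the members and 0.06 for all genes.

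**Figure D2:**
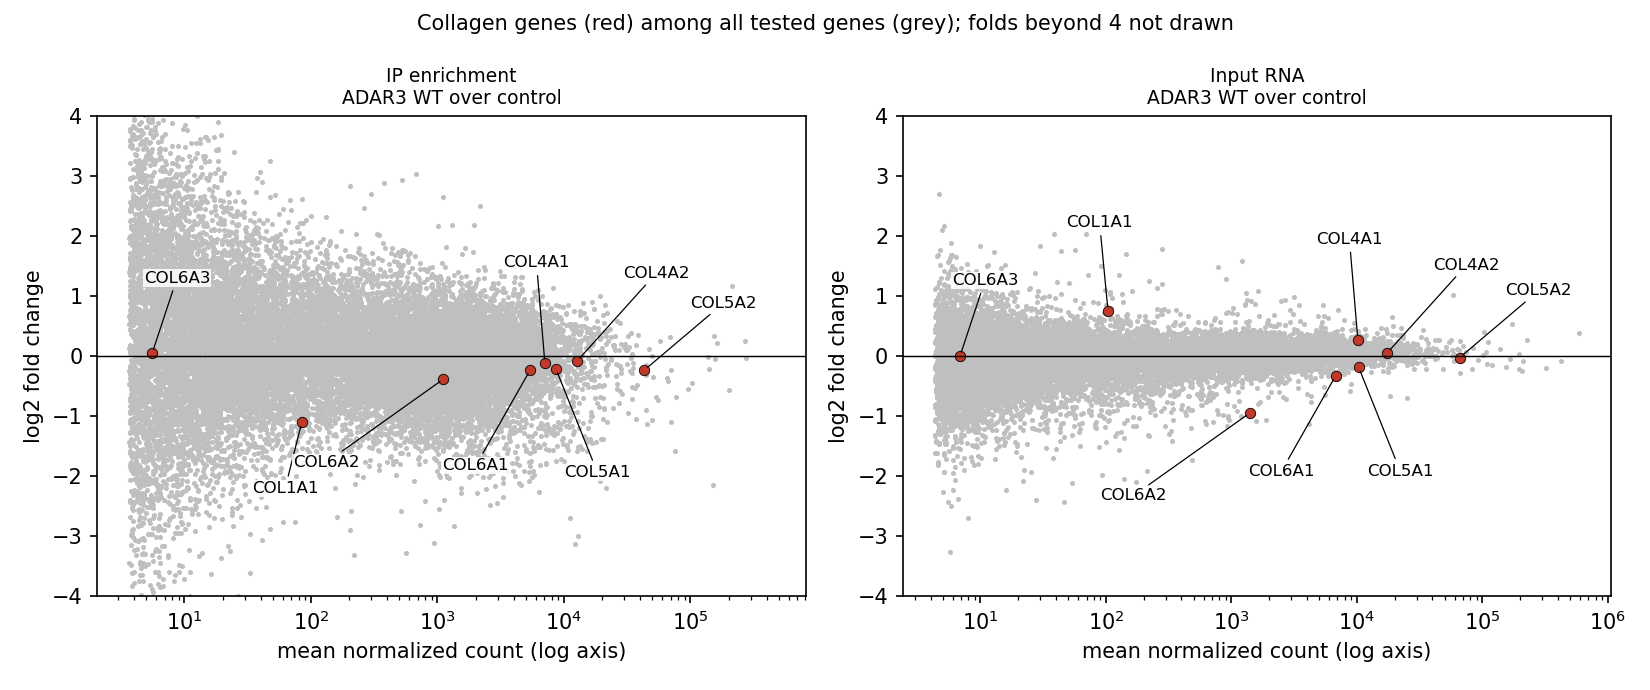
Log2 fold change (vertical axis) against mean normalized count (horizontal log axis) for all tested genes (grey) and the 8 tested collagen genes (red, named), for IP enrichment on the left and input RNA on the right. In the input, COL6A2 lies at -0.95, below nearly all genes of like mean, while in the IP panel at -0.39 it lies within the grey cloud.

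The lower input value of COL6A2 stands beside IP enrichment values that did not pass. These were -0.39 ± 0.27 for ADAR3 WT over Control and -0.60 ± 0.30 for R-Mutant over Control in the authors' deposited tables. Input libraries probably enter both kinds of value, since the IP values were read as IP over input, so they are not separate measurements.

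Precision differed between the chains in a way that count alone did not set. Each member's standard error was compared with those of tested genes whose mean lay within 2-fold of its own. In the input, COL1A1 had a standard error of 1.07, which is 3.57 times the median of its 2605 comparison genes and above 99.8% of them. COL4A1 and COL4A2 had standard errors 1.70 and 1.85 times the median, above 98.0% and 98.5% of genes of like mean. COL6A1 and COL6A2 were instead below it, at 0.85 and 0.81 times the median, with 21.3% and 14.7% of like genes having smaller errors. COL6A3 lay at 1.01 times the median, with 50.6% of like genes smaller. The spread between libraries behind these standard errors was not examined.

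Among the IP comparisons the pattern was narrower. COL4A2 had standard errors 1.35 to 1.50 times the median of like genes, above 95.1% to 97.9% of them. COL5A1 and COL6A1 were 1.30 to 1.36 times the median. COL5A2 lay at or slightly below the median in all 3, at 0.93 to 0.99 times. COL6A3 was near 1 throughout, so its wide intervals are those of any gene at its count.

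**Figure D3:**
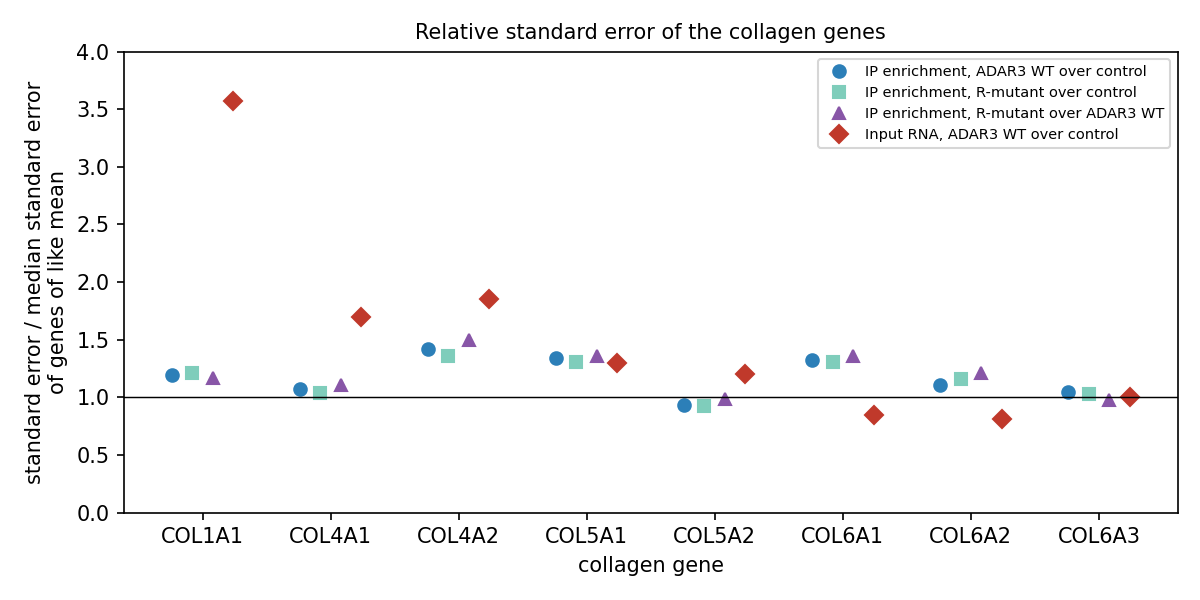
Standard error of each tested collagen gene divided by the median standard error of tested genes whose mean lies within 2-fold of its own (vertical axis, 1 is the median), with 1 marker shape for each of the 4 comparisons. In the input (diamonds) COL1A1 stands at 3.57, COL4A2 at 1.85 and COL4A1 at 1.70, while COL6A2 stands at 0.81.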

How the data were processed

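RIP-seq libraries from 6 groups of 3 were analysed from 4 comparison tables. Per the submitters' processing notes, the authors used STAR 2.7.7a, featureCounts, DESeq2 and GRCh38. No annotation or model formula is given in the sources used here. Per the file headers, each deposited table gives a mean signal (mean normalized count), a log2 fold change with its log2 standard error, a test score, and a p-value with its adjusted p-value. Folds in the 3 IP tables were taken to compare IP relative to input between genotypes, which no label states. At an input mean under 10, the slope of the IP fold on the input fold was -0.79 over 3282 genes where ADAR3 WT is the numerator and 0.48 over 5546 genes where it is the denominator, the signs that shared input in the denominator gives. The authors' p-values in these tables match chi-square with 7 degrees of freedom within 1% for every gene compared with a positive statistic, and the input score equals fold over standard error.

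The test was a two-sided normal test of log2 fold change over standard error, Benjamini-Hochberg adjusted at 0.05 over all genes with a deposited adjusted p-value (21121, 21120, 23385 and 20411 genes), and intervals are 95% normal. The members, the gene lists and this test were chosen with earlier results of these data known. All 10 members are named. The planned lists of other matrix genes and the cell type markers were not run, because no table used here pairs the other identifiers with symbols, so neither the cell type nor the added ADAR3 was checked. The input table also holds 6 columns of values per library, whose names fit no label. They may be the libraries behind the input fold changes, that of COL6A2 included, but could not be matched to the labelled inputs. They were not used, so depth per library is unknown and no value per library is given. Scripts ran in Python 3.11.15 with scipy 1.17.1, pandas 2.3.3, numpy 2.4.6 and matplotlib 3.10.9. The test was run on simulated folds drawn with the deposited standard errors, so this cannot show whether those errors suit the real folds.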

Additional observations from a re-analysis of the deposited data

How the results depend on the processing

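No paired analysis was possible because the tables give no per-library value that matches a label; for the same reason the planned count models, and leaving out a replicate, were not run. With the authors' adjusted p, which covers more terms than the fold change, the number of collagen genes called was 5 for ADAR3 WT and 5 for R-Mutant, each against Control, and 7 for R-Mutant against ADAR3 WT, in place of 0 in each. Where a log2 change of at least 1 in size was also required, the input count was 0 in place of 1, since COL6A2 lies at -0.95. An adjusted p of 0.01, a mean of at least 50 (which drops COL6A3), adjustment over all genes with a standard error, and centring on the median of tested genes left all 4 counts as reported. So did rescaling fold over standard error to its robust spread, which was added after the data had been seen. That spread, which the test assumes to be 1, was 1.59 and 1.60 for ADAR3 WT and R-Mutant over Control. It was 0.605 for R-Mutant over ADAR3 WT and 0.657 in the input. Calls over all genes went from 2986 to 428 in ADAR3 WT over Control and from 59 to 489 in the input. COL6A1 in the input then had an adjusted p of 0.0808 (rescaled normal test) and did not pass. Of 220 combinations of member, comparison and setting, 202 kept their side of the threshold, 17 newly passed, all with the authors' adjusted p, and the remaining 1 was COL6A2 under the fold requirement. Many of the 202 could not have moved, so their number does not measure stability. A stricter adjusted p or an added fold requirement cannot call a member that had failed. In the input, the authors' adjusted p is the main test itself. COL1A1 and COL6A3 are limited by their counts and errors, and COL1A2 and COL3A1 give no usable value.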

Other observations

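The mean normalized count in the IP table of ADAR3 WT over Control was set against that in the input table. Over 13661 genes with an input mean of at least 50, the log2 ratio of these means had a median of -0.24 and quartiles of -0.41 and -0.04. All 7 collagen genes at that mean lay below the median. COL5A2 was lowest at -0.61, with 7.09% of genes lower, followed by COL4A1 at -0.53 (12.8% lower) and COL4A2 at -0.46 (19.1% lower). The others lay nearer the middle. COL6A1 and COL6A2 were at -0.32 and -0.33 (37.0% and 35.6% lower), COL1A1 at -0.30 (41.3% lower) and COL5A1 at -0.26 (47.4% lower). The libraries in each mean are not stated and the tables were normalized separately, so this ratio is a description.

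The genes most like the collagen group in pattern were sought over the 4 log2 fold changes, among the 13284 genes whose mean reached 50 in all tables. The centre was the median of the 7 members at that mean, without COL6A3, at -0.24, -0.36 and -0.15 in the IP comparisons of ADAR3 WT with Control, R-Mutant with Control and R-Mutant with ADAR3 WT, and -0.03 in the input. The nearest identifiers were ENSG00000286388, ENSG00000076201, ENSG00000128654, ENSG00000065457 and ENSG00000120868, at Euclidean distances of 0.0318 to 0.0399. These 4 comparisons share libraries, and such distances are below the standard error of every gene described here. The centre lies at COL5A2's own value in 3 of the 4 comparisons, so these are in effect the genes nearest to COL5A2. Among the members, COL6A2 and COL1A1 were farthest from the centre, at 0.97 and 1.48, with 67.0% and 87.1% of genes nearer.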
